A study of Rattus norvegicus with 9 samples.

Results

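The axon regeneration effector genes described here are Gap43, Sprr1a, Ecel1, Flrt3, Gpr151, Stmn4, Tubb6 and Reg3b. They were taken by gene symbol from the deposited expression table, where each had 1 row, and they are 8 of the 20413 genes listed. All 8 passed the filter on low values and are among the 17187 genes tested. RNA-Seq was carried out on the dorsal root ganglia (DRGs) of adult male Sprague Dawley rats of 8 to 10 weeks of age, in 3 groups with 3 libraries each and 1 rat per library. The Sham group, which the labels call Con, received a cut O-ring. In the chronic post-ischemia pain (CPIP) group, a tight ring around the right ankle gave 3 h of hind paw ischemia followed by reperfusion under anesthesia, a model of complex regional pain syndrome. The CPIP+EA group had the same injury and then electroacupuncture (EA) at high frequency on both hind limbs, once a day for 10 days. All the rats were anesthetized, and the right L4-6 DRGs, on the side of the injury, were taken on day 10. The injury is one of a whole paw, so the libraries mix neurons whose endings lay in the ischemic tissue with neurons that projected elsewhere.

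DRGs contain the somata of sensory neurons for skin, muscle and joints. When the peripheral branch of such a neuron is damaged, transcription factors such as ATF3 and c-Jun switch on a growth program, and genes for growth cone proteins, cytoskeleton, adhesion and secreted factors follow. The same genes are widely used as signs of axon injury in DRGs, where most of them are low in intact adult neurons.

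FPKM counts fragments per kilobase of a transcript relative to all mapped fragments and is thus a level per transcript length, so that levels can be compared between genes. Differences between groups were tested with limma on log2(FPKM + 0.5), a scale on which changes of weakly expressed genes look smaller than they are. A gene was called when its Benjamini-Hochberg adjusted p over all genes tested was under 0.01 and its fold change was at least 1.5. The summed FPKM of a library lay between 445647 and 482940, and between 18279 and 18456 genes were above 0. Sensory neuron markers, among them Rbfox3, Snap25 and Calca, were present in each library, with a summed level of 3430 to 3737 FPKM with Sham, 3206 to 3632 with CPIP and 3212 to 3876 with CPIP+EA. None of these 10 markers was called in any comparison. Their median log2 fold change against Sham was -0.10 for CPIP and -0.09 for CPIP+EA, with 3 of the 10 above 0 in each. An unadjusted limma p under 0.05 was found for 3 and 2 of them, against 8.66% and 12.2% of all genes. Rbfox3, Snap25 and Scn10a were lower in every injured library than in every Sham library. The part of these shifts in the results was not tested. Satellite glia markers summed to 3628 to 3752 FPKM with Sham, 3796 to 4135 with CPIP and 4034 to 4219 with CPIP+EA, higher in the injured rats without overlap. Most of this sum was Apoe (mean 3471 FPKM with Sham), and the median log2 fold change of the 6 markers was 0.02 for CPIP and 0.05 for CPIP+EA against Sham, with 4 and 3 of them above 0 and none called. Their part in the differences below was not tested. Macrophage markers, among them Cd68, Cd163 and Aif1, summed to 88.0 to 110 FPKM with Sham, 104 to 130 with CPIP and 98.8 to 186 with CPIP+EA, with overlap, and none of the 8 was called. CPIP+EA replicate 3 had the lowest neuron marker sum of its group and the highest sums of neutrophil and marrow markers (627 FPKM, against 33.9 to 264 in the other 8 libraries) and of erythroid markers (2377 FPKM, against 247 to 1435). Fibroblast markers summed to 978 to 1311 FPKM with Sham, 836 to 1108 with CPIP and 555 to 1109 with CPIP+EA. For CPIP+EA against Sham all 6 had log2 fold changes below 0, with a median of -0.60, and 5 had an unadjusted p under 0.05. Schwann cell markers summed to 7093 to 11270 FPKM with Sham, 6744 to 12041 with CPIP and 4731 to 9419 with CPIP+EA, and all 6 were below 0 for CPIP+EA against CPIP, with a median of -0.53. None of these 12 was called, and their part in the results was not tested. In whole ganglia, a change in the number of cells of one type cannot be told apart from a change in RNA per cell.

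Sequences upstream of the start site are shown for the 2 members with the largest log2 fold changes, Reg3b and Sprr1a, because these were low in Sham and well above it in all injured libraries, and for Sprr1b, the relative of Sprr1a with a row in the table. RefSeq (assembly GRCr8) gave an upstream sequence for 5 of the 8 members, namely Sprr1a, Ecel1, Flrt3, Tubb6 and Reg3b. The 250 bases before each start were searched for the AP-1 motif TGANTCA, the cyclic AMP response element TGACGTCA, the STAT motif TTCNNNGAA and the SOX motif AACAAAG on both strands, and matches are in capitals. The sequences run 5′ to 3′ in the direction of transcription, from chr2:180752626-180752875 on the minus strand for Sprr1a, chr2:180706356-180706605 on the minus strand for Sprr1b and chr4:112419526-112419775 on the plus strand for Reg3b.
Sprr1a: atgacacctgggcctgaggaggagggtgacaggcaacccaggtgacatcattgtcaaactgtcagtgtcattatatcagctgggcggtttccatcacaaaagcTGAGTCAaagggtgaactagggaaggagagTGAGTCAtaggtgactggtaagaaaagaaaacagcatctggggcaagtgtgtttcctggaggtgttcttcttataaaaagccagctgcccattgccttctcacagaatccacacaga
Sprr1b: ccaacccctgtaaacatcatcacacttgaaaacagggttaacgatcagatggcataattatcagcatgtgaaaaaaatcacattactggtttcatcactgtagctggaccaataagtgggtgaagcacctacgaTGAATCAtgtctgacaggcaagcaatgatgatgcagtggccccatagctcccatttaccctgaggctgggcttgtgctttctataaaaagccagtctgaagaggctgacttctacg
Reg3b: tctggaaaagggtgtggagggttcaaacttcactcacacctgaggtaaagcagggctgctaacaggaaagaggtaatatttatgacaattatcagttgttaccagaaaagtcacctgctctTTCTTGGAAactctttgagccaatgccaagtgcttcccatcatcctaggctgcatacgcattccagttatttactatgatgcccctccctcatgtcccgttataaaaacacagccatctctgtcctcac
Sprr1a held 2 matches to the AP-1 motif, both TGAGTCA, which began 147 and 117 bases before the start. Sprr1b, which was listed at no more than 0.17 FPKM in any library, held 1 match, TGAATCA, 116 bases before its start. An AP-1 match was found in 6.34% of the 33469 upstream sequences of the same length and 2 or more matches in 0.311%. Reg3b held 1 STAT match, TTCTTGGAA, 129 bases before the start, and 7.67% of all upstream sequences held one. Its relative Reg3a had 2 such sequences in the table, and neither held a match to any of the 4 motifs. The upstream sequences of Ecel1, Flrt3 and Tubb6 held none of the 4 motifs, of which the cyclic AMP response element was in 1.59% and the SOX motif in 5.14% of all sequences. Such matches describe letters in a window and were not tested for binding.

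Of the genes, 7 were higher in every library of the injured rats than in every Sham library, and Gpr151 was the exception. Between CPIP and Sham, 6 of the 8 genes were called and all 6 were higher in CPIP, where 0.343% of all genes tested were called higher. The 6 were Reg3b, Sprr1a, Ecel1, Flrt3, Stmn4 and Gap43. The FPKM values of CPIP lay above those of Sham without overlap for 7 genes, against 7.98% of all genes. Between CPIP+EA and Sham, which uses the same Sham libraries, 7 of 8 were called higher, against a background of 0.477%, and 7 did not overlap, against 8.87%. The median log2 fold change of the 8 genes was 1.56 for CPIP and 1.75 for CPIP+EA, each against Sham, and over all genes tested the medians were -0.01 and 0.00. Between CPIP+EA and CPIP, limma called 0 of the 8 genes and 0 of all genes. None of the 8 had an unadjusted p under 0.05 there, against 4.29% of all genes, and none was free of overlap, against 8.23%.

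**Figure D1:**
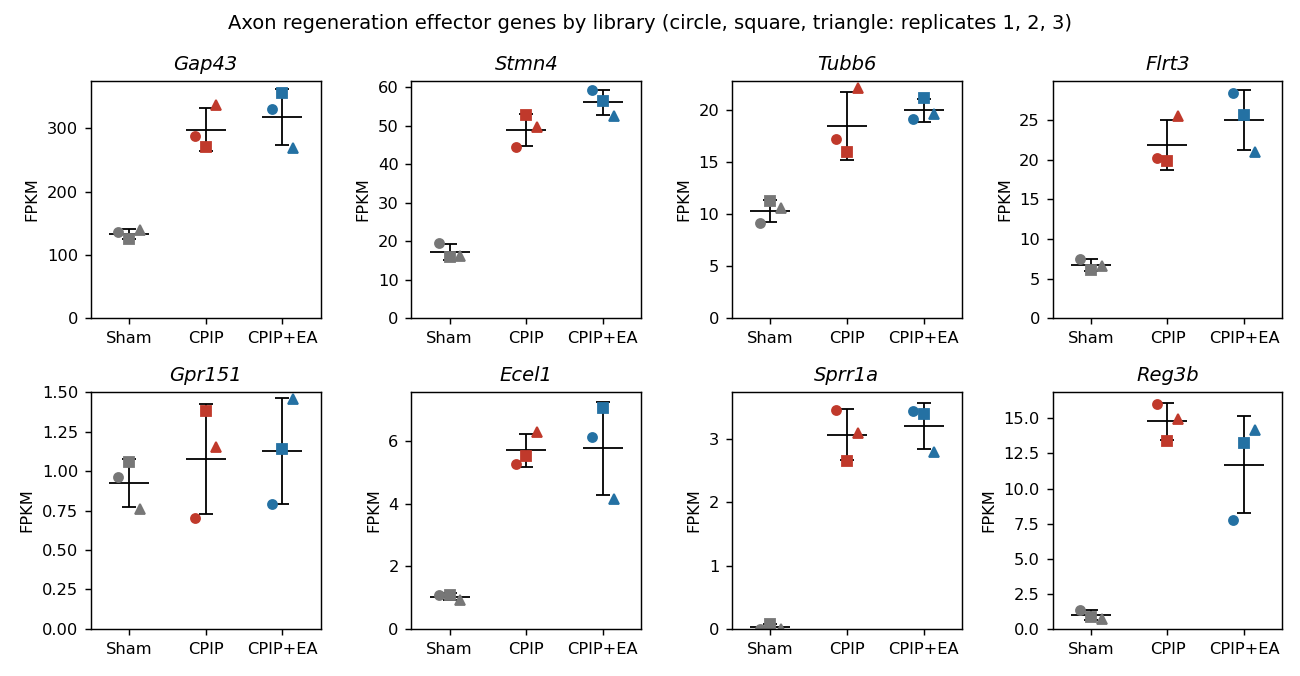
FPKM (y axis, from 0, a scale for each gene) of the 8 genes in the Sham, CPIP and CPIP+EA groups. Symbols are single libraries, and horizontal lines with bars are the mean ± SD of 3 libraries. In every panel except Gpr151, all 6 libraries of injured rats lie above the 3 Sham libraries, and the CPIP and CPIP+EA libraries overlap in all 8 panels.

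Gap43 encodes growth-associated protein 43, a membrane protein of the growth cone and the classic marker of growing axons. It had the highest level per length of the 8 genes in every group. In the Sham libraries it was at 135.83, 124.75 and 139.34 FPKM, in the CPIP libraries at 287.34, 269.65 and 335.96, and in the CPIP+EA libraries at 330.56, 355.18 and 269.4. The lowest injured library, CPIP+EA replicate 3 at 269.4, was still above the highest Sham library. The means ± SD (n = 3) were 133 ± 7.62, 298 ± 34.3 and 318 ± 44.2 FPKM. The fold change between CPIP and Sham was 2.22 (95% interval 1.85 to 2.67, adjusted p 0.00224), and between CPIP+EA and Sham it was 2.37 (1.97 to 2.85, adjusted p 0.00110). Leaving out Sham replicate 1, 2 or 3 or CPIP replicate 1 or 3 ended the call between CPIP and Sham, with an adjusted p of 0.0128, 0.0155, 0.0111, 0.0117 and 0.0107, while the log2 fold change stayed between 1.06 and 1.26 under all 21 alternatives.

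The myristoylated proteins Basp1, Marcks and Marcksl1, which share the growth cone membrane with Gap43, were not called. They stand here as its relatives by location and are not its homologs. Basp1 had 103 ± 6.02 FPKM with Sham, 130 ± 9.63 with CPIP and 132 ± 29.0 with CPIP+EA (SD, n = 3). The log2 ratio of Gap43 to Basp1 was between 0.32 and 0.44 in the Sham libraries and between 1.05 and 1.43 in the 6 libraries of injured rats. The groups did not overlap in this ratio, and the difference of 0.86 had an exact two-sided permutation p of 0.0119, the smallest that 6 libraries against 3 can give. In all, 21 ratios of a gene to a tested relative were compared in this way after the values were seen, and 16 of them reached this p (0.0156 after Benjamini-Hochberg adjustment over the 21). The genes set over their relatives already differed from Sham without overlap in the same libraries. These p-values are thus not separate support for their differences.

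Stmn4 and Tubb6 belong to the microtubule cytoskeleton of the growing axon. Stmn4 encodes stathmin 4, a neuronal protein that binds tubulin and regulates microtubule turnover. The Sham libraries had 19.5, 15.9 and 16.17 FPKM of Stmn4, against 44.42, 52.81 and 49.58 with CPIP and 59.2, 56.45 and 52.61 with CPIP+EA. Only CPIP replicate 2, at 52.81, reached into the range of the CPIP+EA libraries, and the Sham libraries stood far below both. The fold change was 2.80 between CPIP and Sham (95% interval 2.41 to 3.25, adjusted p 0.000114) and 3.21 between CPIP+EA and Sham (2.77 to 3.72, adjusted p 4.20e-05). Between CPIP+EA and CPIP it was 1.15 (0.988 to 1.33), with an unadjusted limma p of 0.0674, the smallest of the 8 genes, and an adjusted p of 0.996.

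The other stathmins were more abundant than Stmn4 in each group and were not called. Stmn2, a stathmin of axons that is needed for their maintenance, had 968 ± 39.9 FPKM with Sham, 1256 ± 54.3 with CPIP and 1323 ± 116 with CPIP+EA (SD, n = 3), with log2 fold changes against Sham of 0.38 (adjusted p 0.215) and 0.45 (adjusted p 0.0810). Stmn1 and Stmn3 differed from Sham by log2 fold changes of 0.31 and 0.11 in CPIP and of 0.34 and 0.23 in CPIP+EA. The log2 ratio of Stmn4 to Stmn2 was higher by 1.17 in the injured rats, that to Stmn1 by 1.25 and that to Stmn3 by 1.41, each without overlap and with an exact permutation p of 0.0119.

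Tubb6 encodes a beta tubulin. Tubb6 was measured at 9.13, 11.21 and 10.58 FPKM in the Sham libraries, at 17.19, 16 and 22.13 in the CPIP libraries, and at 19.09, 21.17 and 19.59 in the CPIP+EA libraries. Every injured library was above every Sham library, and CPIP replicate 3 was the highest of the 9. The fold change between CPIP and Sham was 1.74 (95% interval 1.44 to 2.11), and with an adjusted p of 0.0215 Tubb6 was the member just outside the call. Against Sham, CPIP+EA passed the call, with a fold change of 1.90 (1.57 to 2.30) and an adjusted p of 0.00719. The call did not hold when any one library other than CPIP replicate 3 was left out, with an adjusted p of up to 0.0409 without CPIP+EA replicate 2.

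Among the other beta tubulins, whose coding sequences are so alike that reads can be assigned to the wrong copy, Tubb2b moved most like Tubb6. Tubb2b had 229 ± 6.84 FPKM with Sham, 418 ± 48.5 with CPIP and 456 ± 88.1 with CPIP+EA (SD, n = 3), with log2 fold changes against Sham of 0.86 (adjusted p 0.0320) and 0.97 (adjusted p 0.0121). Neither passed the threshold, which each passed in 3 of the 21 alternatives. The log2 ratio of Tubb6 to Tubb2b differed by -0.05 between the injured and Sham libraries (exact permutation p 0.690). The ratio of Tubb6 to Tubb3, the neuronal beta tubulin, was higher by 0.43 on the log2 scale (exact permutation p 0.0238). Ratios to Tubb2a and Tubb1 were higher by 0.37 and 0.97 with the same p, which for Tubb1 was 0.155 with a pseudocount of 0.1. The ratio to Tubb4b was higher by 0.88 (exact permutation p 0.0119). Tubb4b itself differed from Sham by log2 fold changes of -0.03 and -0.01.

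Flrt3 encodes a leucine-rich repeat transmembrane protein that binds latrophilins, Unc5 receptors and FGF receptors and takes part in cell adhesion and axon guidance. Sham libraries had 7.49, 6.12 and 6.52 FPKM, CPIP libraries 20.23, 19.83 and 25.51, and CPIP+EA libraries 28.37, 25.67 and 20.95. The lowest injured library, CPIP replicate 2 at 19.83, was far above the highest Sham library at 7.49. The fold change was 3.09 between CPIP and Sham (95% interval 2.50 to 3.82, adjusted p 0.000679) and 3.52 between CPIP+EA and Sham (2.85 to 4.35, adjusted p 0.000289). In Sham, Flrt3 was below Tubb6 without overlap. In CPIP and CPIP+EA its mean was above that of Tubb6, but the libraries of both genes overlapped.

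The relatives Flrt1 and Flrt2 were not called and had lower means in the injured rats. Flrt1 had 1.63 ± 0.208 FPKM with Sham, 1.21 ± 0.175 with CPIP and 1.15 ± 0.188 with CPIP+EA, and Flrt2 had 4.07 ± 0.419, 3.77 ± 0.332 and 3.70 ± 0.316 (SD, n = 3). Their adjusted p against Sham lay between 0.303 and 0.921. The log2 ratio of Flrt3 to Flrt1 was between 1.74 and 1.78 in Sham and between 3.42 and 4.07 in the injured rats, and that to Flrt2 was between 0.45 and 0.78 and between 2.18 and 2.70 (exact permutation p 0.0119 for each). Of 9 genes for binding partners of FLRT proteins, 0 were called against Sham in either comparison. Of all genes tested, 0.343% and 0.477% were called higher, so 0 calls among so few genes say little about the partners. The smallest p belonged to Fgfr1, an FGF receptor, whose mean was 80.3 FPKM with Sham, 73.8 with CPIP and 71.8 with CPIP+EA, with an adjusted p of 0.634 and 0.303, followed by Unc5c (adjusted p 0.833) in CPIP and Adgrl1, a latrophilin (adjusted p 0.5), in CPIP+EA.

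Gpr151 encodes a G protein-coupled receptor that is best known from the habenula and is induced in DRG neurons by nerve injury. It was the 1 gene of the 8 that passed no test against Sham. The libraries gave 0.96, 1.06 and 0.76 FPKM for Sham, 0.7, 1.38 and 1.15 for CPIP, and 0.79, 1.14 and 1.46 for CPIP+EA. The 3 groups overlapped widely, and the lowest value of all was in CPIP replicate 1. The fold change was 1.09 between CPIP and Sham (95% interval 0.791 to 1.5, adjusted p 0.955) and 1.13 between CPIP+EA and Sham (0.820 to 1.56, adjusted p 0.795). These upper bounds are below the lower bounds of the 6 genes that were called in both comparisons. For the 6 injured libraries against Sham, the exact permutation p of Gpr151 was 0.405.

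Ecel1, also known as DINE, encodes a membrane endopeptidase of the neprilysin family that is made in injured neurons. Levels were 1.1, 1.08 and 0.91 FPKM in the Sham libraries, then 5.27, 5.54 and 6.31 with CPIP and 6.13, 7.06 and 4.15 with CPIP+EA. CPIP+EA replicate 3, at 4.15, was the lowest injured library, and it was still above the highest Sham library at 1.1. The fold change was 4.05 between CPIP and Sham (95% interval 3.10 to 5.30, adjusted p 0.000781) and 4.03 between CPIP+EA and Sham (3.08 to 5.27, adjusted p 0.000642). None of its 5 relatives that were tested, Ece1, Ece2, Mme (neprilysin), Mmel1 and Kel, was called. Ece1, which processes endothelin, had 26.9 ± 0.391 FPKM with Sham, 25.9 ± 1.57 with CPIP and 23.8 ± 2.26 with CPIP+EA (SD, n = 3), and the log2 ratio of Ecel1 to Ece1 was higher by 2.13 in the injured rats (exact permutation p 0.0119).

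Sprr1a encodes small proline-rich protein 1A, a structural protein of keratinocytes that injured sensory neurons also make and that promotes neurite outgrowth. The Sham libraries were listed at 0, 0.08 and 0 FPKM, those of CPIP had 3.46, 2.65 and 3.1, and those of CPIP+EA had 3.44, 3.39 and 2.79. It went from being listed at or near 0 in each Sham library to more than 2 FPKM in each injured library. With Sham at or near 0 a fold change depends on the pseudocount. For CPIP against Sham the log2 fold change was 2.76 (SE 0.13, adjusted p 1.49e-05) with a pseudocount of 0.5, 4.70 with 0.1 and 1.98 with 1. For CPIP+EA it was 2.81 (adjusted p 1.09e-05). Sprr1b, the other family member with a row, was listed for Sham at 0, 0.08 and 0 FPKM, for CPIP at 0.08, 0 and 0.08 and for CPIP+EA at 0, 0 and 0.17, below the filter.

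Because Sprr1a is also a gene of the epidermis, keratinocyte markers were examined beside it. The summed level of 8 such markers was 4.30 to 5.01 FPKM with Sham, 6.03 to 6.86 with CPIP and 6.32 to 6.87 with CPIP+EA. The sums of the injured rats lay above those of Sham. None of the markers was called, and the largest part of the difference was in Sfn (stratifin), which had 1.98 ± 0.147, 3.15 ± 0.406 and 3.49 ± 0.0839 FPKM (SD, n = 3) with an adjusted p against Sham of 0.0668 and 0.0179. The basal keratin Krt14 was listed at 0.15 ± 0.180, 0.157 ± 0.00577 and 0.0833 ± 0.0289 FPKM (SD, n = 3), and involucrin (Ivl) was at or below 0.05 in each library. The part of keratinocyte RNA in the level of Sprr1a was not tested.

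Reg3b encodes a secreted C-type lectin, also called pancreatitis-associated protein 1, that acts on Schwann cells and is made by DRG neurons after nerve injury. At a pseudocount of 0.5 it had the largest log2 fold change of the 8 genes against Sham. With a pseudocount of 0.1 or on the TPM scale Sprr1a was ahead, at 4.70 against 3.81 and 3.68 against 3.64 for CPIP, and for CPIP+EA also when CPIP+EA replicate 3 was left out. Reg3b was at 1.36, 0.88 and 0.73 FPKM in the Sham libraries, at 16.04, 13.38 and 14.93 with CPIP, and at 7.73, 13.23 and 14.14 with CPIP+EA. CPIP+EA replicate 1, at 7.73, was the lowest of the injured libraries and still several times the highest Sham library. The fold change was 10.4 between CPIP and Sham (95% interval 7.28 to 14.8, adjusted p 0.000151) and 8.06 between CPIP+EA and Sham (5.65 to 11.5, adjusted p 0.000314). Between CPIP and Sham, Reg3b was 6th of the 17187 genes by log2 fold change.

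Its neighbor Reg3a, a close relative whose reads could in part be exchanged with those of Reg3b, was called as well. For Reg3a the Sham libraries had 0.96, 0.78 and 0.55 FPKM, with CPIP 4.26, 4.48 and 3.83, and with CPIP+EA 2.55, 4.49 and 4.46. CPIP+EA replicate 1 was again the lowest injured library. The log2 fold change of Reg3a against Sham was 1.90 in CPIP (adjusted p 0.00287) and 1.76 in CPIP+EA (adjusted p 0.00375), and it was called in 15 and 12 of the 21 alternatives. The log2 ratio of Reg3b to Reg3a was higher by 1.37 in the injured rats (exact permutation p 0.0119). Reg1a, Reg3g and Reg4 had mean values of no more than 0.0533 FPKM in any group. Of 7 tested genes for REG and cytokine receptors, 0 were called. With 0.343% and 0.477% of all genes called higher in CPIP and CPIP+EA, this count says little about the receptors. Lifr, the receptor of leukemia inhibitory factor, had log2 fold changes against Sham of 0.38 (adjusted p 0.350) and 0.32 (adjusted p 0.318), and Extl3, the proposed REG receptor, had -0.16 (adjusted p 0.746) and -0.27 (adjusted p 0.274).

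**Figure D2:**
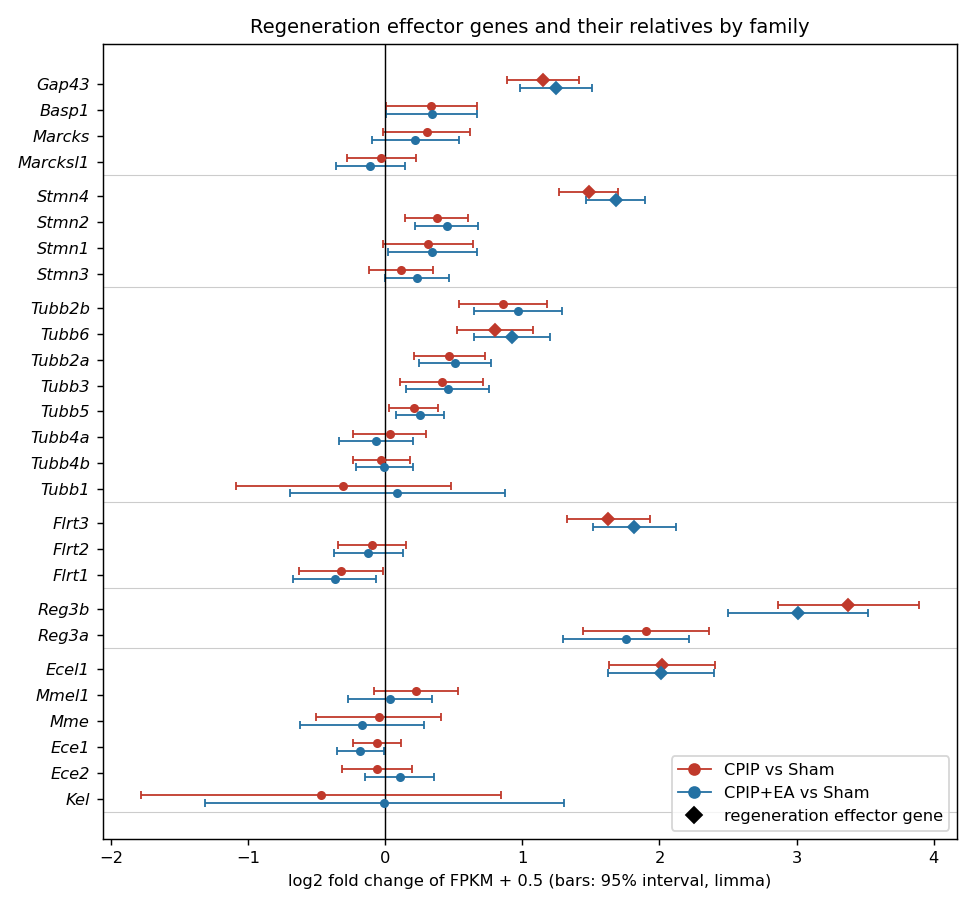
Log2 fold change of FPKM + 0.5 (x axis) for the genes described (diamonds) and their tested relatives (circles), with limma 95% intervals, for CPIP (red) and CPIP+EA (blue) against the same Sham libraries. The intervals of Gap43, Stmn4, Flrt3, Reg3b and Ecel1 lie to the right of those of their relatives. That of Tubb6 does not, and it overlaps at least that of Tubb2b.

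In the order of mean levels per length, Gap43 and Stmn4 led in every group, and below them neighbors changed places between Sham and CPIP. In Sham, Gap43, Stmn4, Tubb6 and Flrt3 led in that order without overlap between neighbors, and Ecel1, Reg3b and Gpr151 lay between 0.73 and 1.36 FPKM with overlapping libraries. In CPIP the mean of Flrt3 stood above that of Tubb6. Reg3b came next, at 14.8 ± 1.34 FPKM, and its highest library, at 16.04, overlapped with the lowest of Tubb6, at 16. Below Reg3b stood Ecel1 at 5.71 ± 0.540, Sprr1a at 3.07 ± 0.406 and Gpr151 at 1.08 ± 0.346 (SD, n = 3). The libraries of neighbors from Reg3b to Gpr151 did not overlap. In CPIP+EA the order was the same, with Reg3b at 11.7 ± 3.47, Ecel1 at 5.78 ± 1.49, Sprr1a at 3.21 ± 0.362 and Gpr151 at 1.13 ± 0.335 FPKM (SD, n = 3), again without overlap between neighbors from Reg3b to Gpr151.

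The genes were also ranked among all genes tested, at a pseudocount of 0.5. By log2 fold change for CPIP against Sham, Sprr1a was 12th, Ecel1 23rd, Flrt3 40th, Stmn4 49th, Gap43 84th, Tubb6 170th and Gpr151 3209th of 17187. For CPIP+EA against Sham, Reg3b was 12th, Sprr1a 15th and Gpr151 2660th. The ranks depend on the pseudocount: for CPIP against Sham, Sprr1a was 8th and Reg3b 11th with 0.1, and Sprr1a was 13th and Reg3b 7th with 1. Of the other genes, 5 ranked lower with 0.1, at 42nd for Ecel1, 93rd for Flrt3, 117th for Stmn4, 196th for Gap43 and 380th for Tubb6, and Gpr151 was 3036th. The members thus ran from near the top of the table to its bulk.

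**Figure D3:**
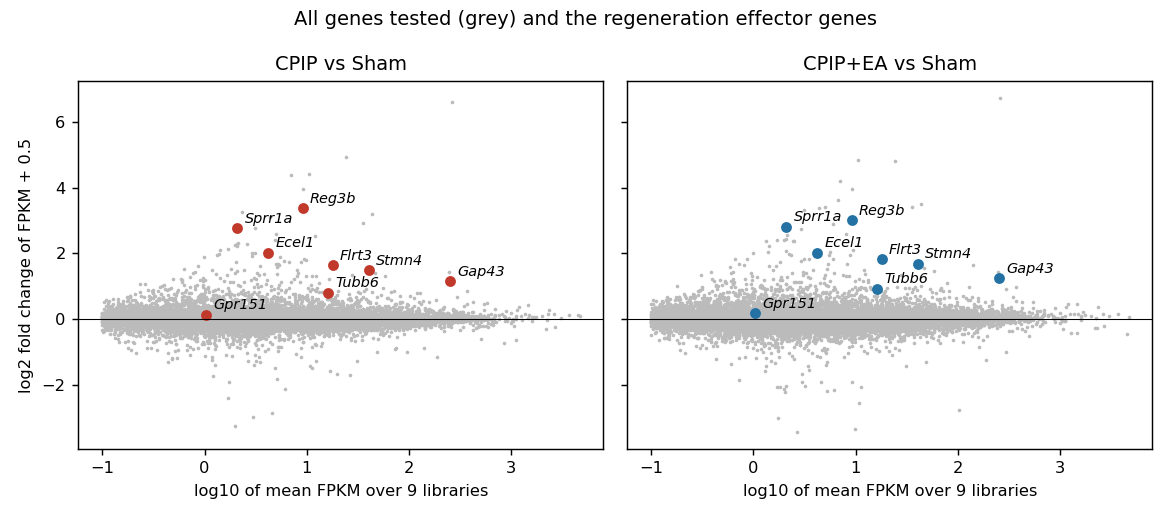
Log2 fold change of FPKM + 0.5 (y axis) against the log10 of the mean FPKM over the 9 libraries (x axis) for the 17187 genes tested (grey) and the 8 genes described (colored, named), for CPIP and CPIP+EA against Sham. The 7 other genes lie above most of the cloud at levels from about 2 FPKM (Sprr1a) to over 200 (Gap43), and Gpr151 lies within it.

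Taking the CPIP and CPIP+EA groups as 6 libraries of injured rats against 3 Sham libraries, 7 of the 8 genes were called higher, against 0.564% of all genes, and 7 did not overlap, against 4.05%. The 7 called genes included Tubb6, with a fold change of 1.82 (95% interval 1.54 to 2.15, adjusted p 0.00417). For each of the 7 the exact two-sided permutation p was 0.0119, the smallest that can be reached. This reading uses the same libraries as the comparisons above.

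The effect of EA was addressed by comparing CPIP+EA with CPIP. The libraries of CPIP+EA and CPIP overlapped for all 8 genes, and the intervals give the sizes that these 3 libraries per group leave possible. For the growth cone and cytoskeleton genes the fold change was 1.07 for Gap43 (95% interval 0.888 to 1.28), 1.15 for Stmn4 (0.988 to 1.33) and 1.09 for Tubb6 (0.899 to 1.32). For the surface proteins it was 1.14 for Flrt3 (0.923 to 1.41), 1.04 for Gpr151 (0.751 to 1.43) and 0.994 for Ecel1 (0.760 to 1.30). For Sprr1a it was 1.04 (0.844 to 1.28). Reg3b had the lowest fold change, 0.776 (0.544 to 1.11, unadjusted limma p 0.141, adjusted p 0.996), and its log2 fold change of -0.37 was -0.10 without CPIP+EA replicate 1 and -0.52 without replicate 3. An EA effect that doubled or halved a gene lies outside the interval for each of the 8. For Reg3b this limit rests on single libraries, since the lower bound was 0.484 without CPIP replicate 2, 0.478 without CPIP+EA replicate 2 and 0.478 without CPIP+EA replicate 3. The adjusted p was at least 0.996 for every gene.

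CPIP+EA replicate 3 had the lowest value of its group for 5 genes, Gap43, Sprr1a, Ecel1, Flrt3 and Stmn4, and the highest for Gpr151 and Reg3b. This is the library with the lowest neuron marker sum and the highest marrow and erythroid sums of its group. Without it, the log2 fold change between CPIP+EA and CPIP was 0.21 for Gap43, 0.31 for Flrt3, 0.24 for Stmn4 and 0.19 for Ecel1. It was 0.14 for Sprr1a and for Tubb6, -0.09 for Gpr151 and -0.52 for Reg3b, and none was called. The part of the cell mixture in these values was not tested. When each library was centred on its sensory neuron markers, the median of all genes moved to 0.10 for CPIP and to 0.14 for CPIP+EA against Sham, and the median of the 8 genes to 1.66 and 1.89.

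**Figure D4:**
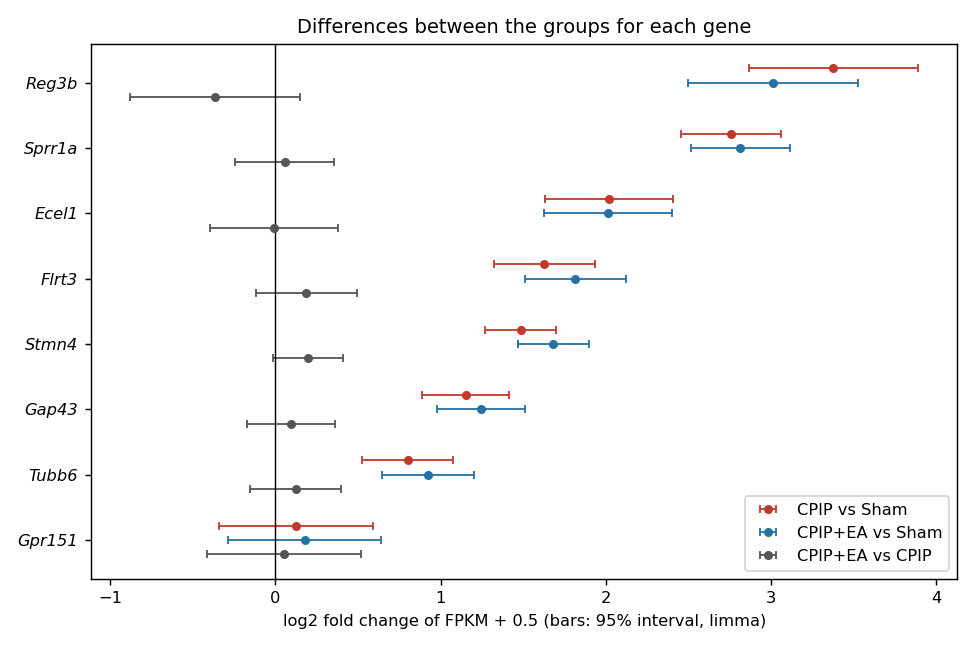
Log2 fold change of FPKM + 0.5 with its limma 95% interval (x axis) for each gene (y axis, ordered by the value for CPIP against Sham), for CPIP against Sham (red), CPIP+EA against Sham (blue) and CPIP+EA against CPIP (grey). All 8 grey intervals include 0, and the red and blue intervals exclude 0 for all genes except Gpr151. The values of Sprr1a depend on the pseudocount.

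For each gene, the 3 tested genes with the most similar pattern were found by Pearson r of log2(FPKM + 0.5) over the 9 libraries. These r values mostly reflect the shared difference between Sham and the injured rats, and the best of 17187 genes is high by selection. For Sprr1a they were Atf3 (r = 0.997), Gadd45a (0.996) and Stac2 (0.995), and for Gap43 Cdhr5, Cacna2d1 and Ptpn5 (0.995 each). Flrt3 was closest to Ptpn5 (0.993), Vip (0.993) and Gap43 (0.992), Ecel1 to Hamp (0.990), Cacna2d1 (0.988) and Gap43 (0.988), and Stmn4 to Crisp1 (0.991), Mmp16 (0.991) and Vip (0.990). Reg3b was closest to its neighbor Reg3a (0.992), then Sdc1 (0.986) and Tph2 (0.983). Tubb6 was closest to Lims1 (0.988), Camk2d (0.986) and Tnfaip8l3 (0.983). Gpr151 was closest to Znf660 (0.961), Hsbp1 (0.954) and Styxl1 (0.947), and its highest r with any of the other 7 genes was 0.355, with Reg3b.

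The transcription factors that drive the growth program were examined as a list of 15 genes, of which 14 were tested. Between CPIP and Sham 3 were called, all higher, against 0.343% of all genes called higher, and between CPIP+EA and Sham 4, all higher, against 0.477%. Atf3, the most widely used marker of axon injury in DRG neurons, had a mean of 5.67 FPKM with Sham, 56.0 with CPIP and 68.4 with CPIP+EA, with log2 fold changes of 3.21 (adjusted p 1.19e-05) and 3.49 (adjusted p 6.18e-06). Sox11, which is needed for axon regrowth, had log2 fold changes of 1.89 (adjusted p 0.00242) and 1.94 (adjusted p 0.00158), and Jun had 0.85 (adjusted p 0.00694) and 0.90 (adjusted p 0.00416). Smad1, which carries BMP signals, was called in CPIP+EA, with 0.67 (adjusted p 0.00671), but not in CPIP, with 0.59 (adjusted p 0.0184). Its call in CPIP+EA was made in 9 of the 21 alternatives. Atf3 was called in all 21 alternatives in both comparisons, whereas Jun was called in 7 and 11, and the counts of called factors lay between 1 and 3 and between 1 and 4. For CPIP 1 factor was left without any one Sham library or without CPIP replicate 1. For CPIP+EA 1 was left without Sham replicate 2 or 3 or CPIP+EA replicate 2, and 2 without CPIP replicate 1 or 2 or CPIP+EA replicate 1 or 3. The median log2 fold change of the 14 was 0.28 and 0.29, beside 1.56 and 1.75 for the 8 effector genes.

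Other genes that injured sensory neurons are known to induce were examined as a list of 30 genes. Of these, 10 were called for CPIP and 12 for CPIP+EA against Sham, all higher, where 0.343% and 0.477% of all genes were called higher, with median log2 fold changes of 0.60 and 0.80. The counts lay between 4 and 11 and between 5 and 14 under the alternatives. For CPIP 5 or 6 were left without any one Sham library or without CPIP replicate 2 or 3, and for CPIP+EA 5 to 7 without any one Sham library, CPIP replicate 2 or CPIP+EA replicate 1 or 2. The neuropeptide gene Gal (galanin) had a mean of 5.13 FPKM with Sham, 42.1 with CPIP and 58.7 with CPIP+EA, with log2 fold changes of 2.91 (adjusted p 9.64e-06) and 3.39 (adjusted p 2.45e-06). Csrp3, a LIM domain protein of muscle that is also made in injured neurons, had log2 fold changes of 2.59 (adjusted p 0.00143) and 3.39 (adjusted p 0.000253). Ankrd1, likewise known from muscle, had 2.13 (adjusted p 0.000184) and 2.41 (adjusted p 8.73e-05), and Gadd45a, a stress-response gene, had 1.40 (adjusted p 2.66e-05) and 1.55 (adjusted p 1.09e-05). All 4 were called in all 21 alternatives. Skeletal muscle markers, given because of Csrp3 and Ankrd1, summed to 7.73 to 13.9 FPKM with Sham, 6.91 to 115 with CPIP and 11.5 to 37.5 with CPIP+EA, overlapping between the groups, and none of the 6 was called. All 6 had log2 fold changes above 0 against Sham, with a median of 1.22 for CPIP and 0.96 for CPIP+EA. The part of muscle RNA in the levels of Csrp3 and Ankrd1 was not tested.

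**Figure D5:**
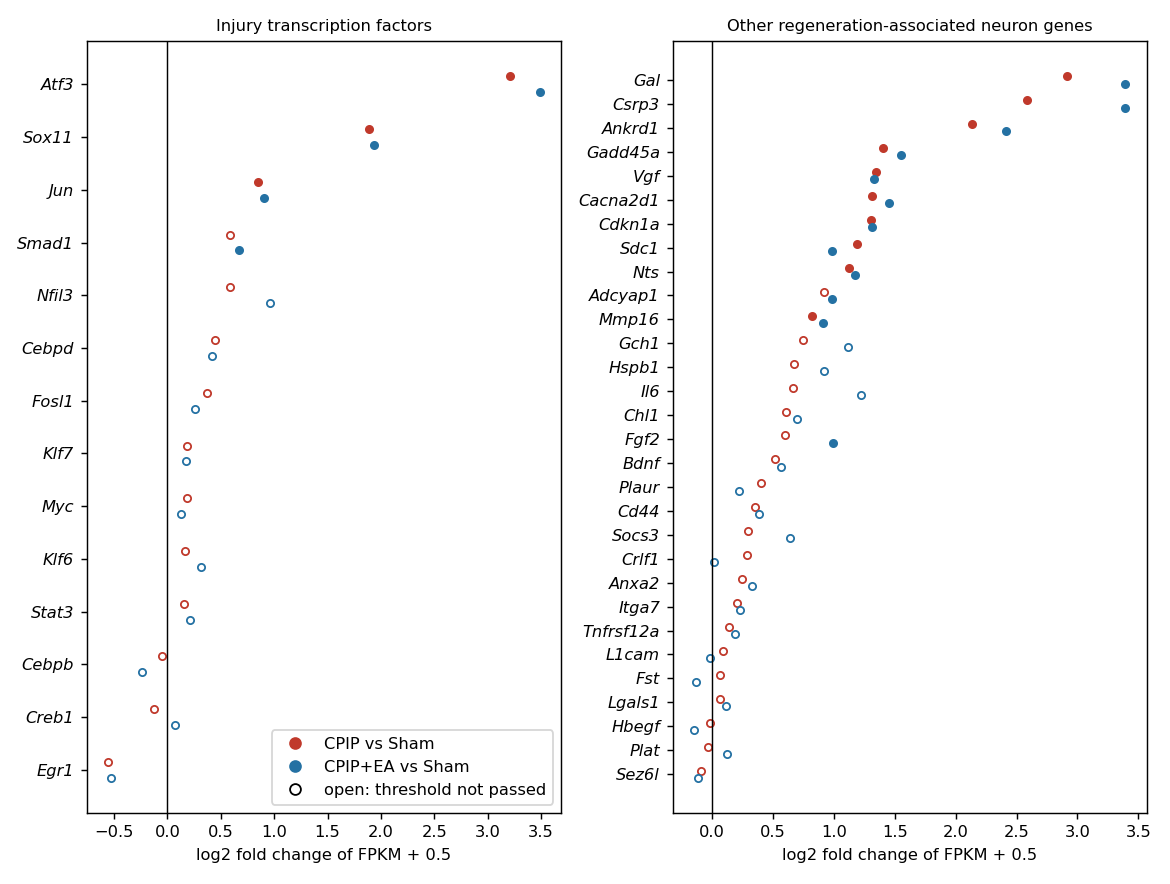
Log2 fold change of FPKM + 0.5 (x axis) against the same Sham libraries for CPIP (red) and CPIP+EA (blue), for 14 injury transcription factors and 30 other genes of the regeneration response. Filled points passed the threshold and open points did not. At a pseudocount of 0.5 Atf3 and Gal lead their lists, with Csrp3 level with Gal at 3.39 for CPIP+EA. Under the 21 alternatives Csrp3 reached 3.30 and Ankrd1 3.51 for CPIP, where Gal reached no more than 3.02.

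General components of the neuronal growth cone and cytoskeleton, a list of 25 genes that leaves out the members, were examined next. Between CPIP and Sham 1 gene of the 25 was called, against 0.343% of all genes tested called higher. This was Fscn1, which encodes the actin-bundling protein fascin, with a log2 fold change of 0.59 (adjusted p 0.00900). The call was made in 6 of the 21 alternatives. An unadjusted p under 0.05 was found for 8 of the 25, against 8.66% of all genes tested. For CPIP+EA against Sham 0 were called by limma, while 9 had an unadjusted p under 0.05, against 12.2% of all genes, and the smallest adjusted p was 0.0121, for Tubb2b. The median log2 fold change of the 25 was 0.20 and 0.23, with Stmn2, Tubb2b and Basp1 among them.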

How the data were processed

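Right L4-6 DRGs of 9 rats were sequenced with reads of 50 bases. Raw reads were filtered with SOAPnuke, and the authors deposited 1 FPKM value for each gene and library. Log2 ratios, P-values and Q-values of the authors for the pairs of groups stand in the same table and were not used. The aligner and genome build are not given in the sources used here. Without read counts, counting errors are unknown, precision rests on the number of libraries, and count tests could not be run. Groups came from the sample labels.

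Log2(FPKM + 0.5) was fitted in R 4.3.3 by limma 3.58.1 (linear model, contrasts and empirical Bayes with a trend) over all 9 libraries without covariates, for genes whose mean FPKM reached 0.1, and p-values were two-sided. The fit was tested on simulated data. Permutation tests covered all 84 ways to set 6 libraries against 3. The alternatives changed the pseudocount (0.1 or 1), the filter (none, or a mean of 1 FPKM), the scaling (quantile, TPM, median), the trend (none or robust), added a replicate block, used only the groups compared, or left out each library. Centring on neuron markers and the ratios to relatives were chosen after values were seen.

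An item withheld for evaluation is not reported here. The members and lists were chosen with earlier results of these data known, so the p-values are not independent evidence. From each list the text names up to 4 called genes by size of change, or up to 2 with the smallest p where none was called. Promoters and figures used Python 3.11.15, pandas 2.3.3 and matplotlib 3.10.9.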

Additional observations from a re-analysis of the deposited data

How the results depend on the processing

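Under 21 alternatives the number of the 8 genes called lay between 5 and 6 for CPIP against Sham and between 5 and 7 for CPIP+EA against Sham, and it was 0 in every alternative for CPIP+EA against CPIP. For the 6 injured libraries against Sham it lay between 6 and 7 under the same alternatives except the fit of only the groups compared, which was not run there because all 3 groups enter it. Sprr1a, Ecel1, Flrt3, Stmn4 and Reg3b were called in both comparisons with Sham under all 21. Gap43 lost its call under 6 alternatives between CPIP and Sham, and Gap43 and Tubb6 lost theirs under 1 and 11 between CPIP+EA and Sham, and the cause was not tested. Shared replicate numbers did not pair the samples (correlations of -0.24 to 0.30 over 9 pairs, 2 of them over 0.1). With the replicate block, 5, 5 and 0 of the 8 genes were called in the 3 comparisons and 6 for the injured libraries, and the genes called among all those tested were 26, 42 and 0. The block ended the calls of Gap43 in CPIP (adjusted p 0.0182) and in CPIP+EA (0.0108) and that of Tubb6 in CPIP+EA (0.0210), each against Sham.

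Some differences near 0 changed sign. Gpr151 between CPIP and Sham lay between -0.014 and 0.31 with 1 library left out, and between CPIP+EA and CPIP it lay between -0.13 and 0.21, being -0.09 without CPIP+EA replicate 3. Sprr1a between CPIP+EA and CPIP lay between -0.031 and 0.14, and Ecel1 between -0.16 and 0.19, with 0.0028 under median centring and 0.022 when centred on sensory neuron markers. None of these values passed the threshold.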
